A study of Solanum lycopersicum with 6 samples.

Results

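Pectin in the tomato fruit wall is trimmed, cut and held together by products of several large gene families, and 237 of the 36224 genes and loci in the deposited table are described as their members. They were taken by the words of the description: pectinesterase, polygalacturonase, pectate lyase, pectin acetylesterase or rhamnogalacturonate lyase. The main ripening polygalacturonase PG2A (Solyc10g080210) and the main ripening pectate lyase PL (Solyc03g111690) were left out and serve below as points of comparison. Of the 237 genes, 216 are described as enzymes, 16 as inhibitors of pectinesterase or polygalacturonase and 5 as the non-catalytic beta subunit of polygalacturonase. A description marks similarity of sequence, so enzyme activity is not known for most of them.

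Homogalacturonan, the most abundant pectin, is laid down with methyl and acetyl groups on its chain of galacturonic acid. Pectinesterases (pectin methylesterases) and pectin acetylesterases remove these groups, and the bared chain can then bind calcium and stiffen the wall or be cut by polygalacturonases and pectate lyases. Rhamnogalacturonate lyases cut the branched pectin rhamnogalacturonan I, and small inhibitor proteins block pectinesterases or polygalacturonases. In ripening tomato these enzymes are known for the softening of the pericarp, the fleshy outer wall of the fruit.

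RNA was sequenced from pericarp of 2 groups, both in the cultivar Ailsa Craig, grown in a greenhouse and sampled at 37 days after anthesis. JMJ6-OE fruit came from transgenic plants that overexpress SlJMJ6, a demethylase of histone H3 by the study's title, and WT fruit came from wild-type plants. Each group held 3 libraries. The labels do not state the transgene's promoter, how many lines were used or whether replicates were separate plants. All p-values therefore describe only how these libraries scatter, which may be technical. In bulk pericarp, fewer cells of a type and less RNA per cell cannot be told apart.

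Library totals ran from 28539410 to 36487547 counts. The gene taken as JMJ6 (Solyc06g008490.3, the 1 of 24 genes described as JmjC demethylases that lies on chromosome 6, where the reference table places JMJ6) had 11.1, 12.2 and 12.8 FPKM in JMJ6-OE and 9.83, 9.04 and 9.63 FPKM in WT. FPKM are fragments scaled for transcript length and library size, so levels of different genes can be set side by side. This match is uncertain, because the deposited table describes the gene as JMJ16. Its log2 fold change of 0.54 ± 0.12 (SE) passed edgeR's quasi-likelihood test (adjusted p = 0.0136). That call ended when JMJ6-OE replicate 2 was left out (adjusted p = 0.0549), and also when WT replicate 2 was (adjusted p = 0.0536). All 11 ripening genes examined, RIN, NOR and the ethylene enzymes ACS2 and ACO1 among them, were higher in JMJ6-OE, by 0.84 to 5.19 on the log2 scale. Within JMJ6-OE, replicate 1 was the lowest library in each of the 11. RIN had 174, 282 and 305 FPKM in JMJ6-OE and 13.7, 39.6 and 31.3 FPKM in WT. NOR had 275, 458 and 495 FPKM in JMJ6-OE and 138, 223 and 204 FPKM in WT. Genotype and the degree of ripening reached by that age cannot be told apart. JMJ6-OE replicate 1 stood apart from the other JMJ6-OE libraries in 12 of the 75 pectin genes tested, as described below.

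Most genes of these families had no or few counts. There were 117 with 0 counts in all 6 libraries, which at a floor of 3 counts allows up to 0.0822 to 0.105 CPM (counts scaled to library size), depending on the library. A further 45 had counts but did not pass the filter on low counts, with at most 54 counts in any 1 library. The remaining 75 were tested in a fit across all 20143 genes that passed, and they entered by their counts in either group, so they do not speak for the 237. Some of the genes called higher passed that filter through JMJ6-OE alone, as given below, and could hardly have been called lower. At a Benjamini-Hochberg adjusted p under 0.05 in edgeR's quasi-likelihood test, 14 of the 75 rose in JMJ6-OE and 6 fell, 26.7% together, against 34.3% of all tested genes. By direction, 18.7% rose, against 17.5% of all tested genes, and 8.00% fell, against 16.8%. For 29 of the 75 genes, or 38.7%, all JMJ6-OE libraries lay on 1 side of all WT libraries in CPM, against 51.4% of all tested genes. The share that rose was thus near that of all genes, and the share that fell was below it. Single libraries moved these counts, and those over all genes with them. With JMJ6-OE replicate 1 left out, 16 of 80 tested genes of these families rose and 16 fell, against 20.2% and 19.2% of all tested genes, so neither share was then far from that of all genes. Leaving out replicate 2 of that group gave 9 of 78 higher and 3 lower, against 9.90% and 9.99% of all tested genes. Leaving out its replicate 3 gave 15 of 79 higher and 3 lower, against 11.9% and 11.4%. Among WT libraries, 13 of 79 were higher and 5 lower without the first replicate, against 13.5% and 14.4% of all tested genes. Without the second WT replicate 11 of 79 were higher and 3 lower, against 11.3% and 11.7%, and without the third 11 of 77 and 3, against 11.5% and 12.6%. In the 5 fits that kept JMJ6-OE replicate 1, 3.80% to 6.33% of these genes fell. The median log2 fold change was 0.14, against -0.01 over all tested genes, and values ran from -2.72 to 8.32. The change was 2-fold or more for 11 of the genes that rose and 4 of those that fell.

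**Figure D1:**
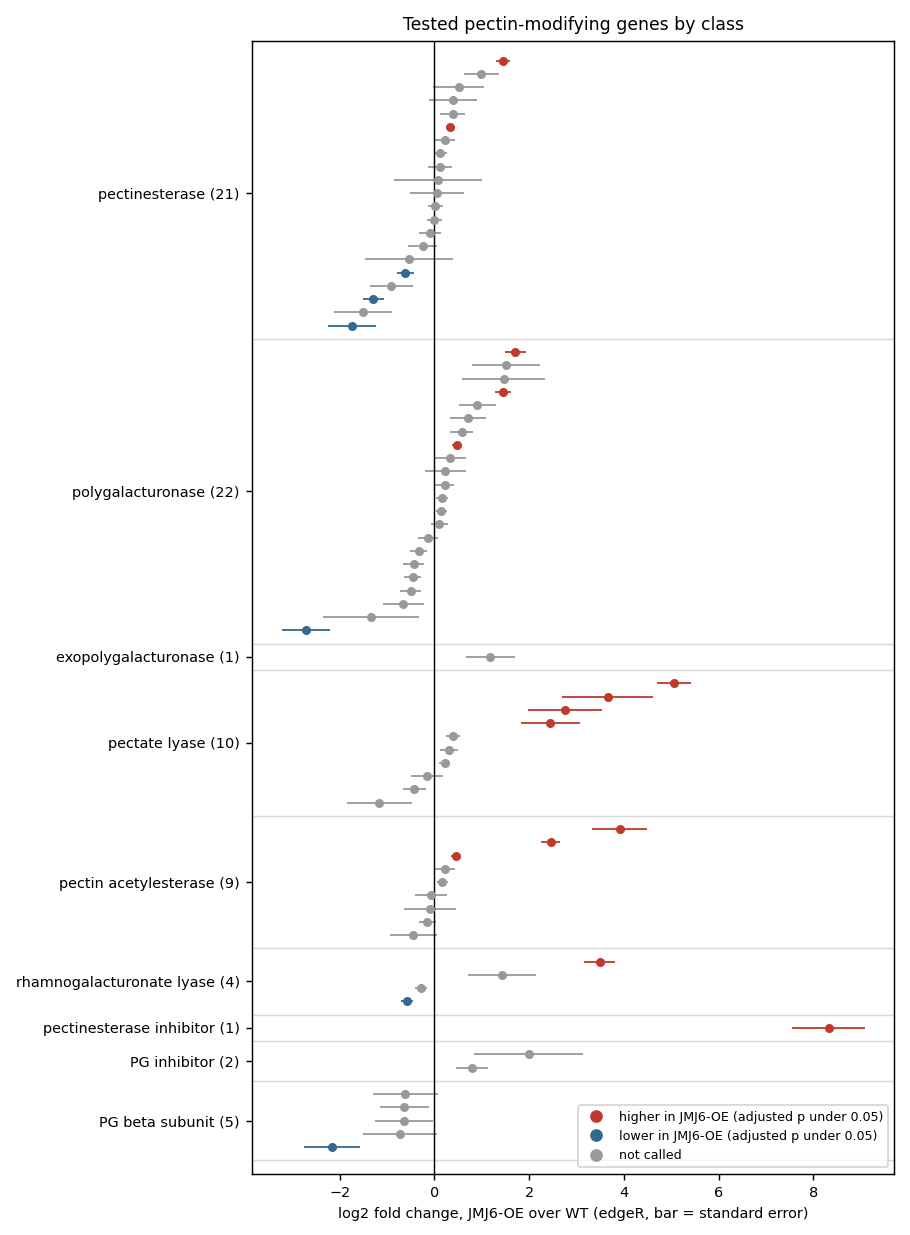
Log2 fold change of JMJ6-OE over WT for the 75 tested genes, by class (vertical axis, number tested in brackets), on a linear horizontal axis; points are edgeR estimates, bars their standard errors, red points rose, blue points fell and grey points did not pass the test. Most points lie near 0, while 4 pectate lyases, 2 pectin acetylesterases and 1 rhamnogalacturonate lyase lie above 2; the point above 8 belongs to a gene with 0 counts in WT, whose fitted value has no fixed size.

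Pectinesterases formed the largest class, with 89 genes, of which 46 had 0 counts and 21 were tested. Of the 21, 2 rose and 3 fell, while 16 were not called. That is 9.52% higher and 14.3% lower, against 17.5% and 16.8% of all tested genes. Transcript of this class was almost all from 1 gene, PME1.9 (Solyc07g064170.3), a pectinesterase of ripening fruit. It stood at 3614, 2443 and 2744 FPKM in JMJ6-OE and 3436, 2539 and 2583 FPKM in WT. The groups overlapped, and its log2 fold change of 0.22 ± 0.21 did not pass the test (adjusted p = 0.465). PME1.9 held 86.7% of the summed FPKM of all pectinesterases in JMJ6-OE and 86.8% in WT.

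The gene next to it on chromosome 7, PME2.1 (Solyc07g064180.3), another fruit pectinesterase, was the most abundant one that rose. It had 237, 219.7 and 229.7 FPKM in JMJ6-OE and 113, 84.7 and 89.0 FPKM in WT. Every JMJ6-OE library lay above every WT library, a 2.72-fold difference with a log2 fold change of 1.45 ± 0.14 (adjusted p = 6.12e-04). The third gene of this tandem, PME3 (Solyc07g064190.3), was near the limit of detection, with 17, 10 and 4 counts in JMJ6-OE and 11, 15 and 8 in WT. PME31 (Solyc00g027770.3) rose by only 0.32 ± 0.08 on the log2 scale (adjusted p = 0.0193). Its values were 34.7, 32.1 and 31.1 FPKM in JMJ6-OE and 30.7, 30.3 and 28.0 FPKM in WT, groups that nearly touched.

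Of the pectinesterases that fell, the gene labelled MPE3 (Solyc03g123620.4) had 1.52, 1.14 and 0.85 FPKM in JMJ6-OE and 2.61, 3.73 and 3.38 FPKM in WT. The groups did not overlap, and its log2 fold change was -1.29 ± 0.22 (adjusted p = 0.00508). PME29 (Solyc12g098340.2) had 25.8, 14.6 and 17.7 FPKM in JMJ6-OE and 29.0, 34.0 and 37.5 FPKM in WT. It fell by a log2 fold change of -0.61 ± 0.18 (adjusted p = 0.0372). A gene described as pectinesterase 1-like (Solyc03g112970.1) had 1.60, 1.45 and 0.71 FPKM in JMJ6-OE and 2.02, 4.67 and 7.64 FPKM in WT, with WT spread over a wider range than JMJ6-OE. Its log2 fold change was -1.74 ± 0.50 (adjusted p = 0.0335).

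MPE3 lies beside the much more abundant PMEU1 (Solyc03g123630.3), a pectinesterase found in many tomato tissues. PMEU1 had 161, 65.8 and 41.3 FPKM in JMJ6-OE and 173, 158 and 229 FPKM in WT. Replicate 1 of JMJ6-OE stood at the WT level and the other 2 stood well below it, and over all libraries the log2 fold change of -0.91 ± 0.46 did not pass the test (adjusted p = 0.174). Many plant pectinesterases carry an inhibitor-like stretch ahead of the enzyme. The description names it for 27 genes, of which 6 were tested and did not pass, with log2 fold changes from -1.51 to 0.39.

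Polygalacturonases, which hydrolyse the de-esterified chain, numbered 54, with 23 at 0 counts and 22 tested. Of the 22, 3 rose and 1 fell, while 18 were not called. That is 13.6% higher and 4.55% lower, against 17.5% and 16.8% of all tested genes. Solyc05g049980.3, described as a probable polygalacturonase, rose most. It had 30.5, 37.6 and 47.3 FPKM in JMJ6-OE and 13.0, 16.4 and 11.5 FPKM in WT. The groups were well separated, with a log2 fold change of 1.70 ± 0.22 (adjusted p = 0.00212). Solyc06g060170.3, of the same description, had 3.27, 3.36 and 3.53 FPKM in JMJ6-OE and 1.36, 1.44 and 1.47 FPKM in WT. Its replicates lay close together, and its log2 fold change was 1.44 ± 0.16 (adjusted p = 9.97e-04). Solyc12g009210.2 rose by 0.47 ± 0.09 on the log2 scale (adjusted p = 0.00854), with 20.6, 21.3 and 21.6 FPKM in JMJ6-OE and 16.4, 17.9 and 18.2 FPKM in WT.

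The polygalacturonase that fell, Solyc08g060970.3, showed the largest decrease among the 75 tested genes. It had 1.69, 1.66 and 0.94 FPKM in JMJ6-OE and 6.18, 6.91 and 19.1 FPKM in WT. WT replicate 3 was far above the other WT libraries, but every JMJ6-OE library lay below all of them, at a log2 fold change of -2.72 ± 0.51 (adjusted p = 0.00883). The 2 most abundant polygalacturonases were not called. Solyc09g075460.3 had 69.6, 44.6 and 47.8 FPKM in JMJ6-OE and 90.7, 66.2 and 72.8 FPKM in WT, groups that overlapped, with a log2 fold change of -0.33 ± 0.18 (adjusted p = 0.196). Solyc08g082170.3 had 45.0, 30.5 and 21.8 FPKM in JMJ6-OE and 58.0, 48.9 and 47.5 FPKM in WT, with no overlap in FPKM, and a change of the same direction (log2 fold change -0.50 ± 0.22, adjusted p = 0.121). PG2A, left out of the class, stood at 2273, 2642 and 1911 FPKM in JMJ6-OE and 28.2, 29.6 and 21.8 FPKM in WT. That is a log2 fold change of 6.61 ± 0.23, and its level in JMJ6-OE was above the summed level of all 54 polygalacturonases described here.

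Among the 10 exopolygalacturonases, which release single residues from the chain end, 9 had 0 counts. The tenth, Solyc02g085705.1, had 16, 11 and 11 counts in JMJ6-OE and 8, 7 and 4 in WT and did not pass the test (log2 fold change 1.18 ± 0.52, adjusted p = 0.116).

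The non-catalytic beta subunit binds polygalacturonase in the wall of tomato fruit and is known to limit the release of pectin there. Of the 5 genes, 4 lie side by side on chromosome 5, and 1 of the 5 fell, or 20%, against 16.8% of all tested genes. The most abundant, GP1 (Solyc05g005560.4), had 678, 168 and 183 FPKM in JMJ6-OE and 653, 554 and 555 FPKM in WT. Replicate 1 of JMJ6-OE was at the top of all libraries and the other JMJ6-OE libraries were below all WT libraries, and the log2 fold change of -0.64 ± 0.52 did not pass the test (adjusted p = 0.384). Its neighbour, also labelled GP1 (Solyc05g005570.3), fell, with 4.04, 1.43 and 1.25 FPKM in JMJ6-OE and 5.90, 8.74 and 18.9 FPKM in WT. Here all JMJ6-OE libraries lay below all WT libraries, at a log2 fold change of -2.16 ± 0.59 (adjusted p = 0.0353). GP2 (Solyc05g005550.3) had 29.4, 6.31 and 3.09 FPKM in JMJ6-OE and 30.4, 15.0 and 24.4 FPKM in WT, again with JMJ6-OE replicate 1 at the WT level.

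Pectate lyases cut the de-esterified chain by elimination. Of 23 genes, 5 had 0 counts and 10 were tested, of which 4 rose and 6 did not pass. The 4 make up 40% of the tested pectate lyases, against 17.5% higher over all tested genes. This share rests on 10 genes, and some of the 4 entered the fit through JMJ6-OE alone, as given below. Solyc09g091430.3, described as pectate lyase 8, had 33.0, 51.5 and 38.3 FPKM in JMJ6-OE and 1.53, 1.89 and 0.80 FPKM in WT. The lowest JMJ6-OE library was far above the highest WT library, and the 33.5-fold difference (log2 fold change 5.06 ± 0.36, adjusted p = 3.57e-04) was the largest of the 75 genes apart from the inhibitor with 0 counts in WT. PL, left out of the class, had 513, 695 and 735 FPKM in JMJ6-OE and 24.2, 25.8 and 21.8 FPKM in WT, a log2 fold change of 4.96 ± 0.22. The difference between these log2 fold changes was not tested.

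The other pectate lyases that rose were scarce. Solyc02g093580.3, described as P18, a name given to a protein of the developing tomato style, had 3.94, 4.69 and 2.92 FPKM in JMJ6-OE and 1.63, 0.30 and 0.48 FPKM in WT. The groups were separate, with a log2 fold change of 2.45 ± 0.62 (adjusted p = 0.0235). Solyc02g031960.3, described as P59, a name given to a pectate lyase of tomato anthers, had 17, 21 and 28 counts in JMJ6-OE and 0, 6 and 0 in WT, so the difference of 3.66 ± 0.95 on the log2 scale (adjusted p = 0.023) rests on few reads. It passed the filter on low counts through JMJ6-OE alone and could hardly have been called lower, so the call is not separate evidence of direction. Solyc09g008380.3, described as pectate lyase 12, had 0.83, 0.60 and 0.14 FPKM in JMJ6-OE and 0.14, 0.10 and 0.02 FPKM in WT. Its ranges met at 0.14 FPKM, although the CPM of the groups did not overlap (log2 fold change 2.75 ± 0.78, adjusted p = 0.0312). With 11, 10 and 2 counts in WT, it too passed the filter on low counts through JMJ6-OE alone.

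The most abundant pectate lyase, Solyc06g083580.3, also described as pectate lyase 8, did not pass the test. It had 71.8, 28.4 and 28.7 FPKM in JMJ6-OE and 55.5, 51.4 and 53.7 FPKM in WT. JMJ6-OE replicate 1 was above every WT library and replicates 2 and 3 were below every WT library, so the log2 fold change of -0.16 ± 0.34 (adjusted p = 0.747) joins opposite values. Solyc05g014000.3, described as pectate lyase 5, had 13.7, 2.78 and 1.85 FPKM in JMJ6-OE and 14.8, 14.6 and 15.7 FPKM in WT, with replicate 1 of JMJ6-OE close to WT and the others far below it. The gene labelled plyB (Solyc04g010230.3) was nearly level, with 13.3, 15.3 and 14.2 FPKM in JMJ6-OE and 13.3, 14.0 and 14.6 FPKM in WT and a log2 fold change of 0.22 ± 0.12 (adjusted p = 0.182).

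Pectin acetylesterases numbered 20, of which 11 had 0 counts and 9 were tested, with 3 that rose and 6 that did not pass. The 3 make up 33.3% of the 9, against 17.5% higher over all tested genes. A gene labelled PAE8 in a run of copies on chromosome 8 (Solyc08g075020.3) had 18.9, 25.1 and 26.8 FPKM in JMJ6-OE and 4.28, 5.73 and 4.86 FPKM in WT. The groups were far apart, with a 5.48-fold difference and a log2 fold change of 2.45 ± 0.19 (adjusted p = 2.79e-04). Another PAE8 gene (Solyc08g005790.3) had 1.07, 1.68 and 2.03 FPKM in JMJ6-OE and 0.06, 0.06 and 0.23 FPKM in WT, a log2 fold change of 3.91 ± 0.58 (adjusted p = 0.00276). With 3, 4 and 15 counts in WT, it passed the filter on low counts through JMJ6-OE alone, so its call is not separate evidence of direction. Its neighbour and the most abundant of the class, Solyc08g005800.3, had 122, 42.9 and 23.0 FPKM in JMJ6-OE and 86.4, 55.8 and 77.1 FPKM in WT. There the groups overlapped and the log2 fold change was -0.09 ± 0.56 (adjusted p = 0.92). PAE3 (Solyc10g038130.2) rose by 0.45 ± 0.10 on the log2 scale (adjusted p = 0.011), with 18.2, 17.0 and 14.1 FPKM in JMJ6-OE and 13.6, 13.1 and 14.2 FPKM in WT. In FPKM these groups overlapped, while in CPM after scaling of the libraries they did not.

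Of 20 rhamnogalacturonate lyases, 13 had 0 counts and 4 were tested, of which 1 rose and 1 fell. With only 4 tested, these shares of 25% each say little beside 17.5% and 16.8% of all tested genes. Solyc11g011300.2 had 1.16, 1.47 and 1.49 FPKM in JMJ6-OE and 0.09, 0.15 and 0.17 FPKM in WT. Every JMJ6-OE library was far above every WT library, a difference of 11.3 times (log2 fold change 3.49 ± 0.33, adjusted p = 4.91e-04). Solyc12g088050.2, the most abundant of the class, fell by a log2 fold change of -0.59 ± 0.12 (adjusted p = 0.0106), with 6.36, 4.91 and 5.54 FPKM in JMJ6-OE and 9.98, 8.77 and 9.94 FPKM in WT. Solyc04g076660.3 had 3.97, 4.60 and 4.32 FPKM in JMJ6-OE and 5.63, 6.16 and 6.17 FPKM in WT and did not pass (adjusted p = 0.117).

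**Figure D2:**
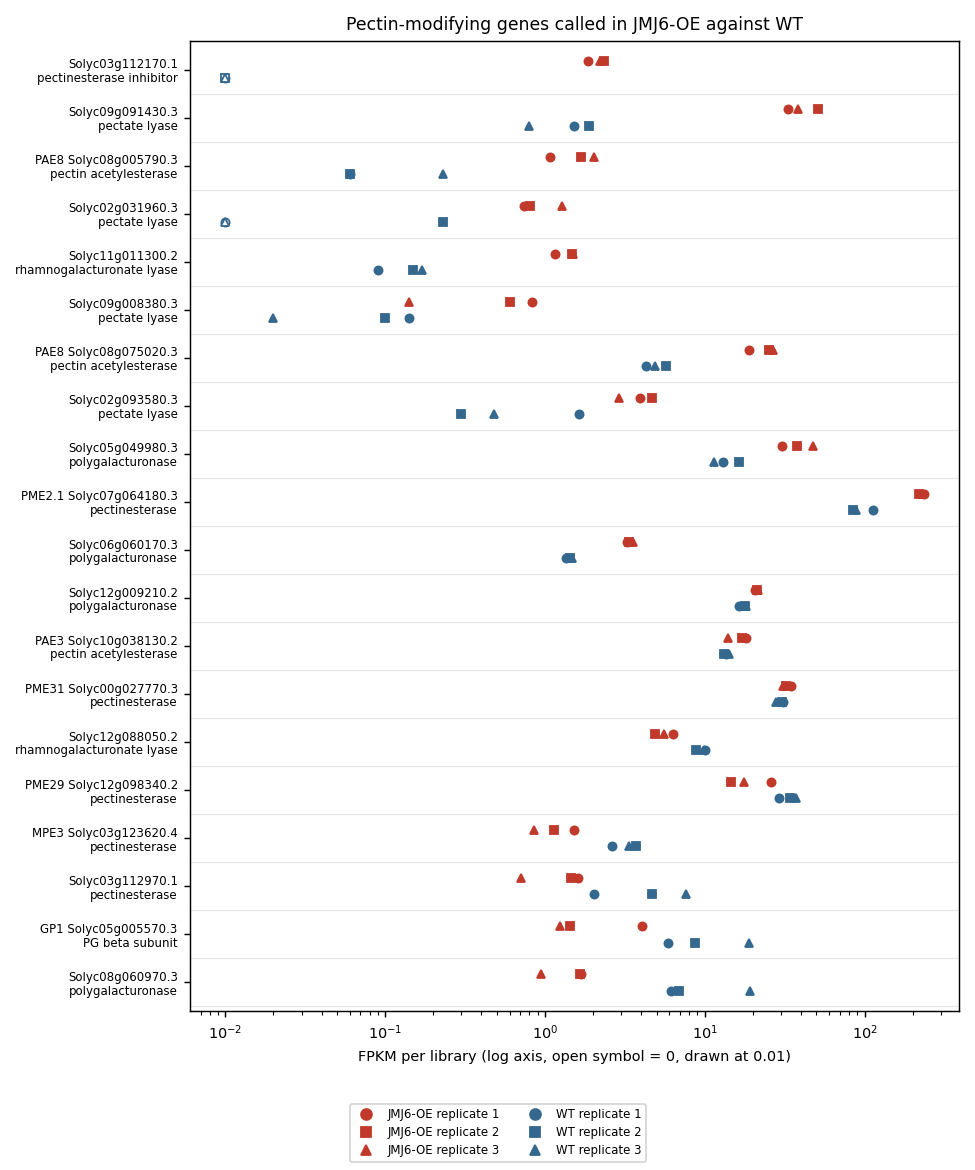
FPKM in each library (horizontal log axis) of the 20 genes that passed the test, JMJ6-OE in red above WT in blue for each gene, with circles, squares and triangles for replicates 1, 2 and 3 and open symbols for 0, drawn at 0.01. Genes run down the page by fold change: the 14 higher in JMJ6-OE come first, from the inhibitor Solyc03g112170.1 to PME31, and the 6 lower ones last, ending with the polygalacturonase Solyc08g060970.3.

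Inhibitor genes taken by these descriptions were few, and most were not detected. Of the 13 genes described as pectinesterase inhibitors, 9 had 0 counts and 1 was tested. That gene, Solyc03g112170.1, rose. It had 31, 44 and 35 counts in JMJ6-OE and 0, 0 and 0 in WT, which is 1.86, 2.35 and 2.22 FPKM in JMJ6-OE and 0 in each WT library. Against a floor of 3 counts over the WT group its transcript was at least 42.8-fold higher in JMJ6-OE, with the JMJ6-OE counts taken as exact. It was called by edgeR (adjusted p = 0.00152). Because it passed the filter on low counts through JMJ6-OE alone, it could only be called higher. Its neighbour PMEI2 (Solyc03g112180.1) had 0 counts in all libraries. Solyc03g112170.1 was absent from the fit where 1 CPM in 3 libraries was asked for.

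The 3 polygalacturonase inhibitor genes, whose proteins are known mainly for blocking enzymes of pathogens, gave 2 tested genes and neither passed. PGIP1 (Solyc07g065090.2) had 28.3, 28.6 and 24.6 FPKM in JMJ6-OE and 13.9, 11.3 and 28.5 FPKM in WT. WT replicate 3 reached the JMJ6-OE level and the other WT libraries did not (log2 fold change 0.79 ± 0.34, adjusted p = 0.119). The gene labelled FLR1 (Solyc09g014480.2) had 42.4, 21.0 and 0.60 FPKM in JMJ6-OE and 8.34, 3.35 and 5.97 FPKM in WT. It was high in 2 JMJ6-OE libraries and close to 0 in the third, below all of WT (log2 fold change 1.99 ± 1.15, adjusted p = 0.23).

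Transcript levels were also summed over each class. All 216 enzyme genes together reached 4749, 3258 and 3486 FPKM in JMJ6-OE and 4346, 3339 and 3493 FPKM in WT. The groups overlapped, and the ratio of their means was 1.03. PME1.9 gave 76.6% of that sum in each group. Pectate lyases summed to 119 ± 25.6 FPKM in JMJ6-OE and 94.2 ± 2.47 FPKM in WT (SD, n = 3), a ratio of 1.26, which was 1.86 without their most abundant gene. Polygalacturonases summed to 191 ± 22.8 FPKM in JMJ6-OE and 215 ± 15.6 FPKM in WT, a ratio of 0.890 in FPKM and 1.01 in CPM. The scaling of the libraries moves such ratios: scaling factors were 0.885 to 1.00 in JMJ6-OE and 1.04 to 1.09 in WT, and the deposited FPKM do not carry them, so fitted fold changes lie somewhat above ratios of FPKM. Rhamnogalacturonate lyases summed to 11.7 ± 0.292 FPKM in JMJ6-OE and 15.9 ± 0.403 FPKM in WT, a ratio of 0.736 in FPKM and 0.864 in CPM. Beta subunit genes reached 713, 176 and 187 FPKM in JMJ6-OE and 692, 579 and 599.8 FPKM in WT.

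**Figure D3:**
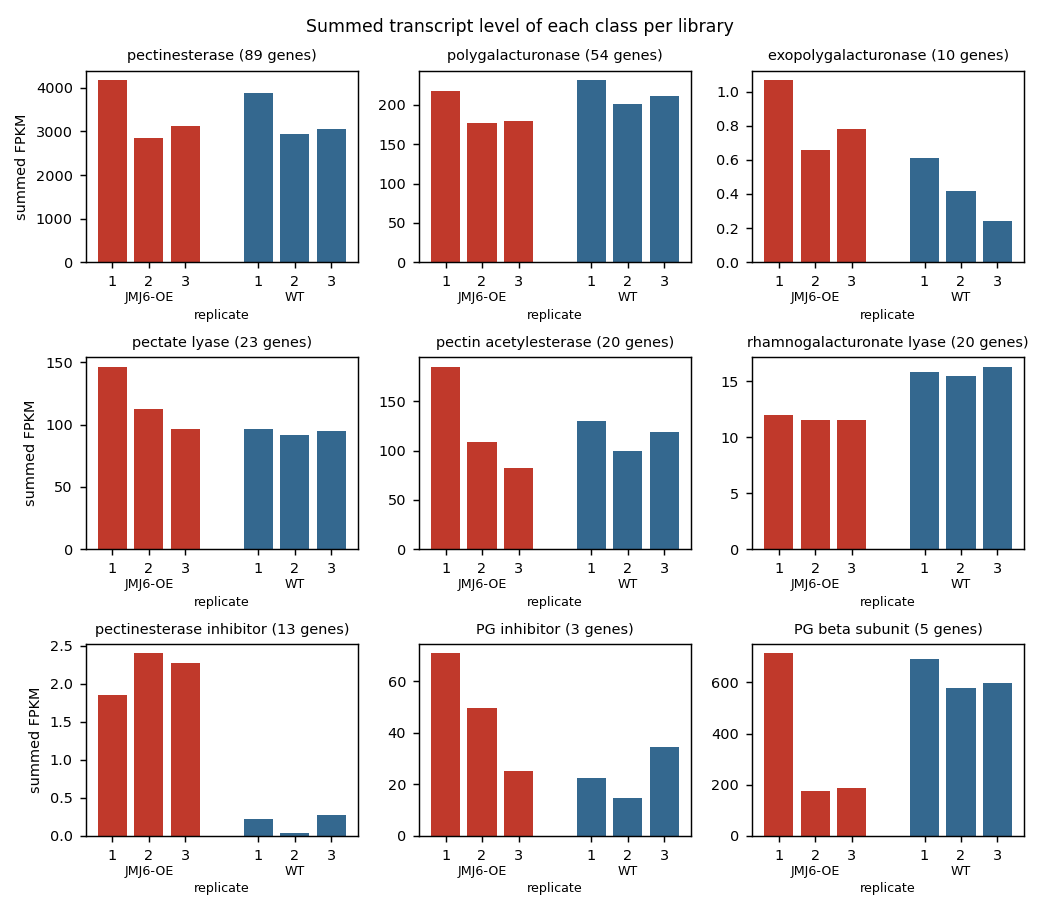
Summed FPKM of each class (vertical axis from 0, a separate scale in each panel) in the 3 JMJ6-OE libraries in red, left, and the 3 WT libraries in blue, right, each bar 1 library, with the number of genes in brackets. Pectinesterases and polygalacturonases overlap between the groups, rhamnogalacturonate lyases are lower in all JMJ6-OE libraries, and for the beta subunit JMJ6-OE replicate 1 stands at 713 FPKM beside 176 and 187 FPKM in the other JMJ6-OE libraries.

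In several of these genes the JMJ6-OE libraries were split. JMJ6-OE replicate 1 was more than 2-fold above both other JMJ6-OE libraries in 12 of the 75 tested genes (16.0%), against 2.60% of all tested genes, a measure chosen after the values were seen. JMJ6-OE replicate 3 was more than 2-fold below both others in 9 of the 75 (12.0%), against 3.19% of all tested genes. The 12 genes were all 5 beta subunit genes, the pectate lyases Solyc06g083580.3 and Solyc05g014000.3, PMEU1, PME40 (Solyc06g009190.3), the PAE8 gene Solyc08g005800.3 and the polygalacturonases Solyc03g116500.3 and Solyc03g116580.3. In them, replicate 1 exceeded the higher of the other JMJ6-OE libraries by 2.21 to 4.57 times. In 10 of the 12, replicates 2 and 3 both lay below all WT libraries, while replicate 1 lay within the WT range in 5, above it in 6 and below it in 1.

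Of the 16 genes lower without JMJ6-OE replicate 1, 5 had also passed with all libraries and 11 were added. GP1 (Solyc05g005560.4) was then lower by a log2 fold change of -1.51 ± 0.15 (adjusted p = 6.60e-04), PMEU1 by -1.57 ± 0.25 (adjusted p = 0.00476) and Solyc05g014000.3 by -2.46 ± 0.18 (adjusted p = 2.16e-04). Solyc06g083580.3 was then lower by -0.67 ± 0.09 (adjusted p = 0.00182). Removing this library raised the share of all genes called to 39.5% as well. Replicate 1 was also the lowest JMJ6-OE library in all 11 ripening genes, though above every WT library in each. Whether the split in the pectin genes goes with ripening, and what sets replicate 1 apart, was not tested.

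**Figure D4:**
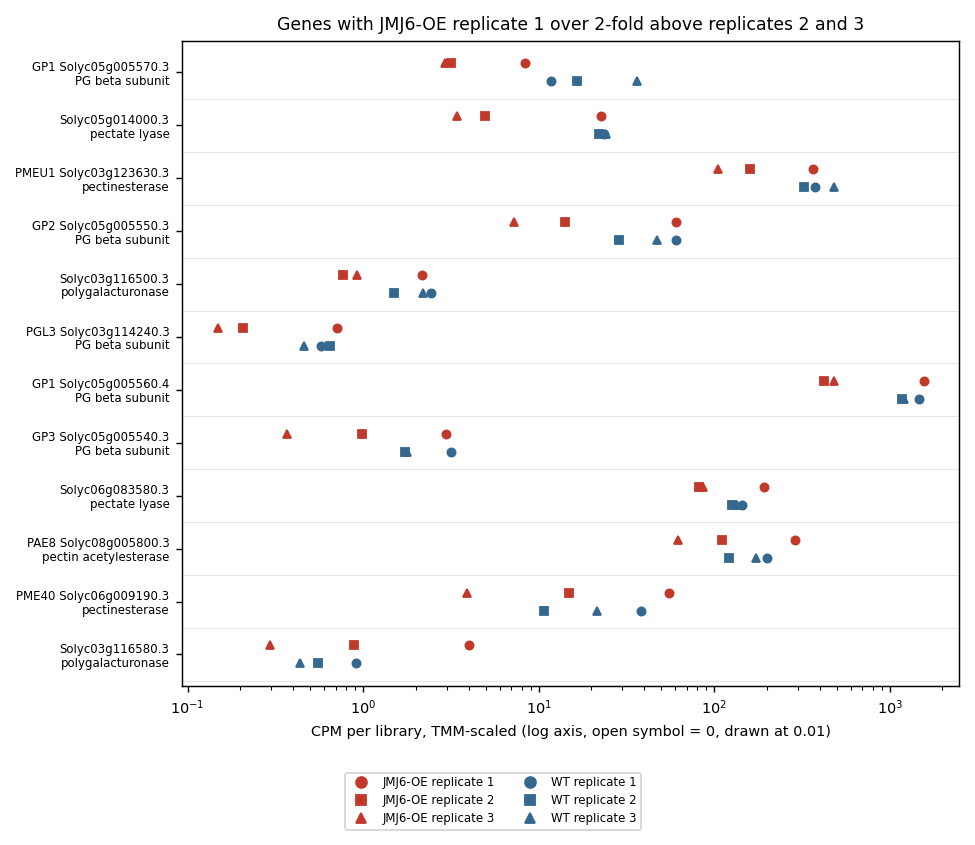
CPM on TMM-scaled library sizes in each library (horizontal log axis) for the 12 genes in which JMJ6-OE replicate 1 exceeded both other JMJ6-OE libraries by more than 2-fold, JMJ6-OE in red above WT in blue, with circles, squares and triangles for replicates 1, 2 and 3. The red circle lies near or above the blue symbols in most rows, while red squares and triangles lie below them in 10 of the 12 genes.

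Many of these genes lie in tandem. Counting genes of 1 class at most 2 positions apart in the order of identifiers, 112 of the 237 genes fell into 42 tandem groups of up to 7. In 25 of these groups no gene was tested, in 8 exactly 1 was and in 9 at least 2 were. A gene that passed edgeR's test stood in 8 of the 42, 1 in each. In the group of 6 acetylesterase genes on chromosome 8, Solyc08g075020.3 had all the counts and the other 5 had 0. In the group of 6 rhamnogalacturonate lyase genes on chromosome 11, Solyc11g011300.2 was again the tested one, and its neighbours held 0 to 2 counts. Reads from close copies can be assigned to the wrong one, and the handling of shared reads and of strand is not given here, so values within a tandem, PME1.9 with PME2.1, MPE3 with PMEU1, the beta subunit genes and both PAE8 neighbours, are less certain than those of single genes.

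Genes named for flower parts were mostly at 0 or low counts. Of 22 members whose names or descriptions mark them as first found in pollen, anthers, style or abscission zones, a set drawn up after the values were seen, 11 had 0 counts and 5 were tested, of which 2 rose. That is 40% of only 5 genes, against 17.5% of all tested genes. Of the 2, Solyc02g031960.3 passed the filter on low counts through JMJ6-OE alone. The pollen pectate lyase gene LAT56 (Solyc03g058910.3) had 5, 14 and 9 counts in JMJ6-OE and 0 in each WT library, under the filter on low counts. It passed that filter without JMJ6-OE replicate 1, the lowest of the JMJ6-OE libraries, and was then called higher (adjusted p = 0.0164). Having no WT counts, it entered that fit through JMJ6-OE alone and could only be called higher, so the call is not separate evidence of direction. The other pollen markers, none of them a member, held 24 genes, of which 5 had 0 counts, the defining gene LAT52 included, and they summed to 947 to 983 FPKM in JMJ6-OE and 638 to 689 FPKM in WT. Of the 14 tested, 1 rose and 3 fell, or 7.14% and 21.4%, against 17.5% and 16.8% of all tested genes. Seed markers, 25 storage protein and oleosin genes of which 9 had 0 counts, summed to 67.8 to 139.5 FPKM in JMJ6-OE and 17.4 to 27.4 FPKM in WT, with 1 of 5 tested genes higher. That is 20%, against 17.5% of all tested genes. Fruit markers (TAGL1, RIN and E8) summed to 3923 to 7030 FPKM in JMJ6-OE and 486 to 747 FPKM in WT, none of them at 0. Xylem markers summed to 8.20 to 9.53 FPKM in JMJ6-OE and 9.36 to 11.2 FPKM in WT, with 16 of 33 at 0, and phloem markers to 38.9 to 49.9 FPKM in JMJ6-OE and 40.5 to 48.9 FPKM in WT, with 2 of 17 at 0. Both cuticle genes, CD1 and CER6, were detected, at a summed 83.5 to 127.7 FPKM in JMJ6-OE and 62.3 to 100.4 FPKM in WT. The part of seed or pollen transcripts in the differences above was not tested.

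Other genes of pectin metabolism were read from the same fit. Genes described as galacturonosyltransferases, a family that includes enzymes building the homogalacturonan chain, numbered 30, with 5 higher and 3 lower among 21 tested. That is 23.8% higher and 14.3% lower, against 17.5% and 16.8% of all tested genes. The 30 include 2 described as specific to xyloglucan, neither of them tested. The galacturonosyltransferase 6 gene Solyc07g005360.3 had 17.8, 18.5 and 17.2 FPKM in JMJ6-OE and 11.1, 12.3 and 13.1 FPKM in WT, a log2 fold change of 0.74 ± 0.09 (adjusted p = 0.0013). The galacturonosyltransferase 6 gene Solyc12g010200.2 rose by 1.09 ± 0.20 and the galacturonosyltransferase-like 1 gene Solyc02g089880.3 by 0.59 ± 0.11 on the log2 scale. The 3 lower genes had log2 fold changes of -1.89 ± 0.39 (Solyc01g080367.1), -1.46 ± 0.39 (Solyc05g009820.3) and -0.94 ± 0.23 (Solyc02g088630.3). Of 21 beta-galactosidases, which strip galactan side chains, 11 were tested, with 2 higher and 1 lower. That is 18.2% and 9.09%, against 17.5% and 16.8% of all tested genes. Solyc12g044880.2 was the most abundant of the 3 that passed, with 50.5, 48.4 and 46.4 FPKM in JMJ6-OE and 39.2, 42.0 and 38.7 FPKM in WT and a log2 fold change of 0.47 ± 0.08 (adjusted p = 0.00385). The 1 tested arabinofuranosidase, Solyc10g081120.2, fell, with 39.7, 34.9 and 36.6 FPKM in JMJ6-OE and 59.6, 62.4 and 57.0 FPKM in WT and a log2 fold change of -0.50 ± 0.08. Among 6 related inhibitors of the same protein family outside the rule, 3 were tested and the vacuolar invertase inhibitor gene Solyc12g099190.1 fell by a log2 fold change of -0.96 ± 0.19. The gene labelled PMEI3 (Solyc07g042390.2), described by its invertase and pectin methylesterase inhibitor superfamily, did not pass (log2 fold change -0.73 ± 0.26, adjusted p = 0.0676). It had 11.9, 6.46 and 6.01 FPKM in JMJ6-OE and 16.8, 16.8 and 12.1 FPKM in WT, and the groups overlapped in CPM. All 5 softening genes set beside them, PG2A, PL, the beta-galactosidase TBG4, the endoglucanase CEL2 and the expansin EXP1, rose, by 3.20 to 6.61 on the log2 scale.

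The calls were of unequal strength. Of the 20 genes called, 12 were called in each of the 6 fits that left out 1 library and in each of the 7 other settings that tested them. They were PME2.1, MPE3, all 4 polygalacturonases, the pectate lyase Solyc09g091430.3, both PAE8 genes, both rhamnogalacturonate lyases and the pectinesterase inhibitor. Among them, the PAE8 gene Solyc08g005790.3 and the inhibitor passed the filter on low counts through JMJ6-OE alone, so their steady calls are not separate evidence of direction. The other 8 kept their direction in all settings but lost the call in some, with adjusted p up to 0.111. PME31 lost it without JMJ6-OE replicate 2 or 3 or WT replicate 2 or 3. PAE3 lost it without JMJ6-OE replicate 2 or WT replicate 2. PME29 kept it among these fits only without JMJ6-OE replicate 1, and Solyc03g112970.1 only without WT replicate 1. Solyc05g005570.3 was not called without JMJ6-OE replicate 2 or 3 or WT replicate 2 or 3. Of the scarce pectate lyases, Solyc02g031960.3 kept its call in 2 of the 6 fits and Solyc02g093580.3 in 3. Solyc09g008380.3 kept it only without JMJ6-OE replicate 3.

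**Figure D5:**
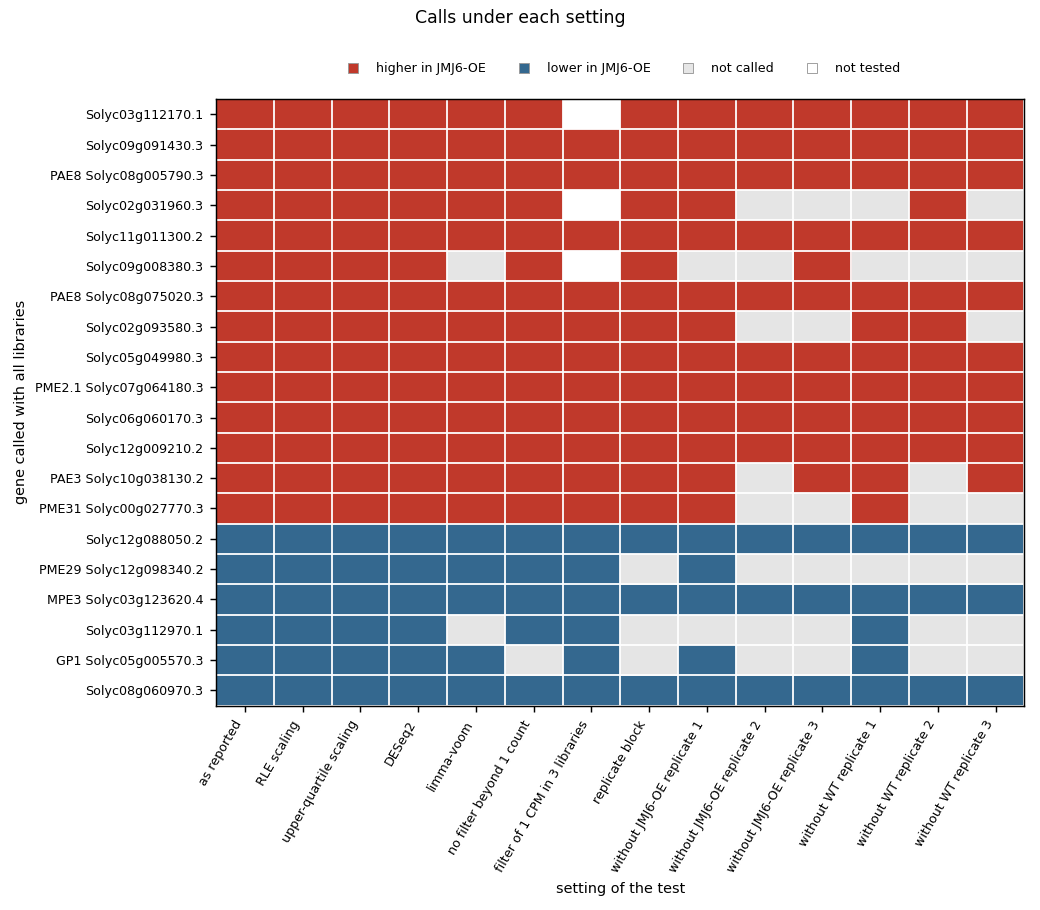
Calls of the 20 genes (vertical axis, by fold change) under each setting of the test (horizontal axis), with red for higher in JMJ6-OE, blue for lower in JMJ6-OE, grey for not called at adjusted p under 0.05 and white for not tested. Rows of 1 colour belong to the 12 genes called wherever they were tested, and most grey cells stand in the columns that leave out 1 library.

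In the authors' deposited table, 22 of the 75 tested genes had a false discovery rate under 0.05, against 37.1% of all tested genes. Of these 22, 20 were the genes called by edgeR. The other 2 were PME12 (Solyc05g047590.3) at 0.0374 and PGIP1 at 0.0360 in the authors' deposited table, where edgeR gave adjusted p of 0.100 and 0.119. PME12 had 1.45, 0.68 and 0.15 FPKM in JMJ6-OE and 2.37, 2.83 and 2.04 FPKM in WT, with all JMJ6-OE libraries below all WT libraries.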

How the data were processed

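RNA of tomato pericarp was measured in 3 JMJ6-OE and 3 WT libraries, grouped by their titles. Alignment was with HISAT2, per the submitters' processing notes; its version, the counter, build, annotation and strandedness were not given in the sources used here. Per the file headers, the authors deposited raw counts and FPKM per gene and library and their own log2 fold change, p-value and false discovery rate per gene. Symbols, descriptions and identifiers come from the same table.

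Genes were kept on the deposited counts by edgeR's filterByExpr (minimum count 10), scaled by TMM and tested for genotype over all 20143 genes with edgeR's robust quasi-likelihood test (edgeR 4.0.16, R 4.3.3), p-values being adjusted by Benjamini-Hochberg and called under 0.05. SE is the absolute log2 fold change over the root of F. FPKM were used for levels and sums, without a test. The members, lists and the named genes were chosen with earlier results of these data known. Named were, per class, called genes up to 8 by adjusted p and the 3 with the highest mean FPKM, and up to 3 called genes per other list. Genes named beyond this rule for their replicates, neighbours, names or direction were chosen after their values were seen.

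Depth was 28539410 to 36487547 counts. The floor of 3 counts covers counting error only. No library was a copy of another. On counts simulated for JMJ6-OE against WT (19886 genes), the test called 90.9% of 66 genes with a 4-fold change, 58.5% of 65 with a 2-fold one and 15.2% of 66 with a 1.5-fold one, and 7 genes falsely. In that simulation 19689 genes had no change, while 34.3% of tested genes were called in the data. The adjustment of p-values therefore differs, and these rates may not hold for the real comparison. The result was recomputed with DESeq2 1.42.0, with limma-voom (limma 3.58.1), with upper-quartile or RLE scaling, with 2 other filters, with a replicate block and without each library in turn. Figures were drawn with matplotlib 3.10.9.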

Additional observations from a re-analysis of the deposited data

How the results depend on the processing

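For the alternatives run, the numbers of genes higher and lower in JMJ6-OE, 14 and 6, ranged over the fits leaving out 1 library from 9 to 16 and from 3 to 16, and for the enzymes, 13 and 5, from 8 to 15 and from 3 to 12. Over all tested genes the shares higher and lower ran in the same fits from 9.90% to 20.2% and from 9.99% to 19.2%. The highest counts of genes came without JMJ6-OE replicate 1 and the lowest count of higher genes without JMJ6-OE replicate 2, while 4 of the 6 fits gave 3 lower. Inhibitors higher numbered 1 to 2 in these fits, 2 with DESeq2 and 0 with the filter of 1 CPM in 3 libraries, which does not test the gene. The alternatives for single classes and for the other lists were added after the data were seen. In the leave-one-out fits, pectinesterases gave 1 to 4 higher and 1 to 4 lower, polygalacturonases 1 to 5 lower, pectate lyases 1 to 5 higher and 0 to 2 lower, polygalacturonase inhibitors 0 to 1 higher and beta subunit genes 0 to 4 lower. Galacturonosyltransferases gave 3 to 5 higher and 1 to 6 lower, beta-galactosidases 1 to 2 higher and 0 to 3 lower, and the related inhibitors 1 to 3 lower. With the filter of 1 CPM in 3 libraries, 2 pectate lyases, 0 pectinesterase inhibitors and 1 beta-galactosidase were higher. With upper-quartile scaling 2 rhamnogalacturonate lyases were lower, and with DESeq2 1 polygalacturonase inhibitor was higher and 2 beta-galactosidases and 2 related inhibitors were lower. Without a filter beyond 1 count, 0 beta subunit genes were lower. Replicate numbers did not pair the libraries (correlations of deviations 0.0939, 0.0777 and -0.0822). With the number as a replicate block, 14 genes were higher and 5 lower, with 1 pectinesterase, 3 polygalacturonases, 0 beta subunit genes and 2 related inhibitors lower and 1 beta-galactosidase higher. The direction reversed for Solyc06g083580.3, whose log2 fold change was 0.056 without JMJ6-OE replicate 2, 0.028 without JMJ6-OE replicate 3 and from -0.67 to 0.056 over these fits. It also reversed for Solyc08g005800.3, at 0.10, 0.29 and 0.050 without JMJ6-OE replicate 2, JMJ6-OE replicate 3 and WT replicate 1, with a range of -0.92 to 0.29. In CPM the summed ratio was 1.01 for polygalacturonases, 0.864 for rhamnogalacturonate lyases and 14.2 for pectinesterase inhibitors. Without its most abundant gene the ratio was 1.86 for pectate lyases, 0.962 for rhamnogalacturonate lyases, 0.207 for pectinesterase inhibitors and 3.62 for polygalacturonase inhibitors. The value for pectinesterase inhibitors rests on genes with at most 3 counts in any library, so it has no fixed size. That for polygalacturonase inhibitors rests on FLR1 alone, at 42.4, 21.0 and 0.60 FPKM in JMJ6-OE and 8.34, 3.35 and 5.97 FPKM in WT. The cause of these shifts was not tested. Scaling moved the median of all genes to at most -0.07 (log2). Depth left 45 detected genes untested.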
